A study of Mus musculus with 6 samples.

Results

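The 9 fatty acid desaturase and elongase genes Scd1, Scd2, Fads1, Fads2, Elovl1, Elovl2, Elovl3, Elovl5 and Elovl6 were followed in mouse liver after vertical sleeve gastrectomy (VSG), in which the larger part of the stomach is cut away to leave a narrow tube. They were chosen by name, by matching the gene identifiers of the deposited table to GENCODE release M21, and made up 9 of its 55385 genes. PolyA RNA was sequenced from the livers of 3 sham-operated and 3 VSG-operated male mice, and the comparison asks how the operation alters liver gene expression in diet-induced obesity. All 6 animals were 6 to 8 weeks old at the start, ate a high-fat diet (HFD) for 10 weeks, were operated on, and stayed on HFD for another 12 weeks. Both groups were wild-type C57BL/6 mice per the study's methods, with no transgene or deleted gene. Sham mice carried the surgery and the diet but not the gastrectomy, so both groups are models of prolonged HFD feeding and neither is a lean control. Whether the animals were fed or fasted at collection, and at what time of day, is not given in the sources used here. Each library came from 1 mouse and is named by group and sample number, sham 1 to 3 and VSG 4 to 6.

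Newly made or dietary fatty acids are remodelled in the endoplasmic reticulum by desaturases, which insert double bonds, and by elongases, which lengthen the chain. Stearoyl-CoA desaturases (Scd) turn saturated fatty acids into the monounsaturated palmitoleate and oleate of triglyceride and phospholipid. Fads1 and Fads2 alternate with Elovl5 and Elovl2 to build arachidonate and docosahexaenoate from the essential fatty acids of the diet, whereas Elovl6 lengthens the palmitate that comes from de novo synthesis. In liver several of these genes are known targets of SREBP-1c and LXR, the insulin- and sterol-responsive activators of lipogenesis.

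Total counts were 22804397 to 24191778 per library, and 14454 genes were deep enough to be tested. Among the hepatocyte markers, 8 of 9 names were matched and all 8 were detected, with Alb, the albumin gene, at 35793 CPM (counts scaled to library size) or more in each library. The summed hepatocyte markers were 79342 to 123512 CPM in sham and 75771 to 108809 CPM in VSG livers, and 1 of the 8 passed the test, Fgb, a fibrinogen chain, which was higher. At an unadjusted p under 0.05, 1 was higher and 1 lower (Ttr, log2 fold change -0.83, adjusted p = 0.103), and DESeq2 called 2. Neutrophil markers were higher in VSG livers for 12 of 12 genes, with a summed level of 7.62 to 22.8 CPM in sham and 163 to 1883 CPM in VSG livers. Of 11 macrophage and Kupffer cell markers 4 were higher (Clec4f, Vsig4, Timd4 and Marco) and 7 did not pass, with negative log2 fold changes for Trem2 (-1.40) and Gpnmb (-0.59), and the sum was 426 to 1094 CPM in sham against 985 to 2777 CPM in VSG livers. Of 10 stellate cell markers, whose sum was 753 to 1132 against 415 to 712 CPM, 1 was lower by edgeR (Reln), 8 were lower at an unadjusted p under 0.05, and DESeq2 called 6. Of 5 tested bile duct markers, whose sum was 57.8 to 254 against 73.5 to 200 CPM, Sox9 was higher, and Krt7, Krt19, Epcam and Spp1 had log2 fold changes of -1.20 to -0.45 that did not pass, with a list median of -0.76. None of 9 sinusoidal endothelial markers passed the edgeR test (1 had an unadjusted p under 0.05, and DESeq2 called 0), and adipocyte markers were too low to test, with Lep at 0 in all libraries. Mitochondrial genes held 5.59 to 6.58% of counts in sham and 4.14 to 5.01% in VSG livers. The part of these shifts in the results that follow was not tested, and in whole liver, fewer cells of a type and less RNA per cell cannot be told apart.

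All 9 genes are protein coding, and 5 of them lie on chromosome 19 (mouse build GRCm38, the same assembly as mm10). Scd1 (ENSMUSG00000037071.3, chr19:44394455-44407879, minus strand) and Scd2 (ENSMUSG00000025203.6, chr19:44293674-44306864, plus strand) are 87.6 kb apart. Fads1 (ENSMUSG00000010663.5, chr19:10182888-10196877, plus strand) and Fads2 (ENSMUSG00000024665.8, chr19:10062765-10101746, minus strand) are 81.1 kb apart on the same chromosome. Elovl3 (ENSMUSG00000038754.5, chr19:46131897-46135694, plus strand) is the fifth gene there. The others are Elovl1 (ENSMUSG00000006390.15, chr4:118428093-118432953, plus strand), Elovl2 (ENSMUSG00000021364.16, chr13:41182381-41220405, minus strand), Elovl5 (ENSMUSG00000032349.13, chr9:77917364-77984519, plus strand) and Elovl6 (ENSMUSG00000041220.10, chr3:129532355-129638495, plus strand). Reads of close copies can be misassigned, so shared sequence was counted in stretches of 50 bases of the GENCODE transcripts. Of these stretches, 4.56% of Scd1 and 3.97% of Scd2 also occur in another gene, among them Scd3 and Scd4, and 3.98% of Elovl6 stretches recur in 191 other genes. The share was 0.152% for Fads2, 0.139% for Elovl1 and 0 for the other 4 genes. How reads that map to several places were treated is not given in the sources used here.

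RefSeq promoters (GRCm38.p6, 250 bases before to 50 bases after the start) were available for 5 of the 9 genes, 7 promoters in all. Those of Fads2, Elovl5 and Elovl6 are shown because their transcripts were lower after VSG, and the first of the 2 Elovl1 promoters because its transcript did not pass the test. Each is written on the gene's own strand, and capitals mark every match, on either strand, to the letters CCAAT, to the Sp1 letters GGGCGG or to CACGTG. Fads2 spans chr19:10101454-10101753, Elovl5 chr9:77917115-77917414, Elovl6 chr3:129532136-129532435 and Elovl1 chr4:118427843-118428142.
Fads2: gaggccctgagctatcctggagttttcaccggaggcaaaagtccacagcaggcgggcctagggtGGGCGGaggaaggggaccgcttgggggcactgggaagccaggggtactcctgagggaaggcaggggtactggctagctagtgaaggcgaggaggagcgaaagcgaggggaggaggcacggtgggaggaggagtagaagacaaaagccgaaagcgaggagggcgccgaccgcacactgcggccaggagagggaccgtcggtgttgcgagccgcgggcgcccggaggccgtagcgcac
Elovl5: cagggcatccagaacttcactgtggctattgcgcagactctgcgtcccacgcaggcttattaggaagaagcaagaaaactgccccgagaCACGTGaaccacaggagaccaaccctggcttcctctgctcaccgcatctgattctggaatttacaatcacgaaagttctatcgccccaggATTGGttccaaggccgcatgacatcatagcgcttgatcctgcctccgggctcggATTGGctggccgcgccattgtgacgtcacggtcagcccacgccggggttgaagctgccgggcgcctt
Elovl6: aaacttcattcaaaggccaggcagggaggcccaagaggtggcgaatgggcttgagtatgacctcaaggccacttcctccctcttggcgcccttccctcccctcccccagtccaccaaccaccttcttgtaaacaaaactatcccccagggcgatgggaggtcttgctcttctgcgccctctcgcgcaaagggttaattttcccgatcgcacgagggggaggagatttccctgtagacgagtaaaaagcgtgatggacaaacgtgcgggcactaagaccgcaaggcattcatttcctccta
Elovl1: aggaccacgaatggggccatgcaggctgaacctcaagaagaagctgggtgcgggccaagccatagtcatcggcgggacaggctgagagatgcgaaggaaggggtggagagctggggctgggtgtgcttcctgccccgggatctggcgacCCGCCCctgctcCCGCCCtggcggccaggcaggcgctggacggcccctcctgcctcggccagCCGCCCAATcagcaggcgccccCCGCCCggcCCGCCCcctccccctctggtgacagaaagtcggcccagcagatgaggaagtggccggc

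CCAAT is the letters of the NF-Y box, GGGCGG those of the Sp1 box and CACGTG the E-box read by bHLH factors, the family of SREBP and ChREBP. The Elovl5 promoter held 2 CCAAT matches, read on the opposite strand and beginning 71 and 17 bases before the start, and 1 CACGTG match beginning 161 bases before it. The Fads2 promoter held 1 GGGCGG match, 186 bases before the start, and the Elovl6 promoter held none of these letters. The Elovl1 promoter shown held 1 CCAAT and 5 GGGCGG matches, and the CCAAT at 35 bases before the start overlaps the GGGCGG match that begins at 39 bases. The second Elovl1 promoter held 0 CCAAT and 2 GGGCGG matches. Of the 2 Elovl2 promoters, the first held 5 GGGCGG matches and the second 0. Of all 32851 mouse promoters of this length, 37.4% held CCAAT, 35.7% GGGCGG and 7.15% CACGTG. No promoter of the 5 genes held TCACNCCAC, the sterol element form searched (1.24% of all promoters), TATAAA (13.6%), or direct repeats of AGGTCA spaced by 1 base (0.0396%) or 4 bases (0.0152%). These are matches of letters within 300 bases and no record of binding.

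VSG livers had lower levels of Scd1, Fads1, Fads2, Elovl5 and Elovl6, and no gene of the 9 was higher. Scd1, the desaturase that makes oleate, was 6.83-fold lower (95% interval 3.60 to 13.0), and Elovl6 was 3.55-fold lower (2.23 to 5.63). The 3 genes of polyunsaturated fatty acid synthesis that passed were 2.34-fold (Fads1), 2.73-fold (Fads2) and 2.45-fold (Elovl5) lower. The remaining 4 genes (Scd2, Elovl1, Elovl2 and Elovl3) did not pass the test. Of all genes tested, 14.7% had an adjusted p under 0.05, 7.87% lower and 6.79% higher after VSG. That is 1137 lower and 981 higher genes, a split of 1513 and 486 when libraries were scaled by total counts alone. The median log2 fold change (VSG minus sham) was -1.23 over the 9 genes and 0.03 over all genes tested. In 6 of the 9 genes, the 5 that passed and Elovl2, every VSG value lay below every sham value, and 39.7% of all genes were free of overlap in either direction. An unadjusted p under 0.05 was found for 5 of the 9 genes and 33.9% of all genes, and DESeq2 called the same number, 5 of 9, against 18.7% of its genes. These p-values measure the spread between 3 animals a group.

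**Figure D1:**
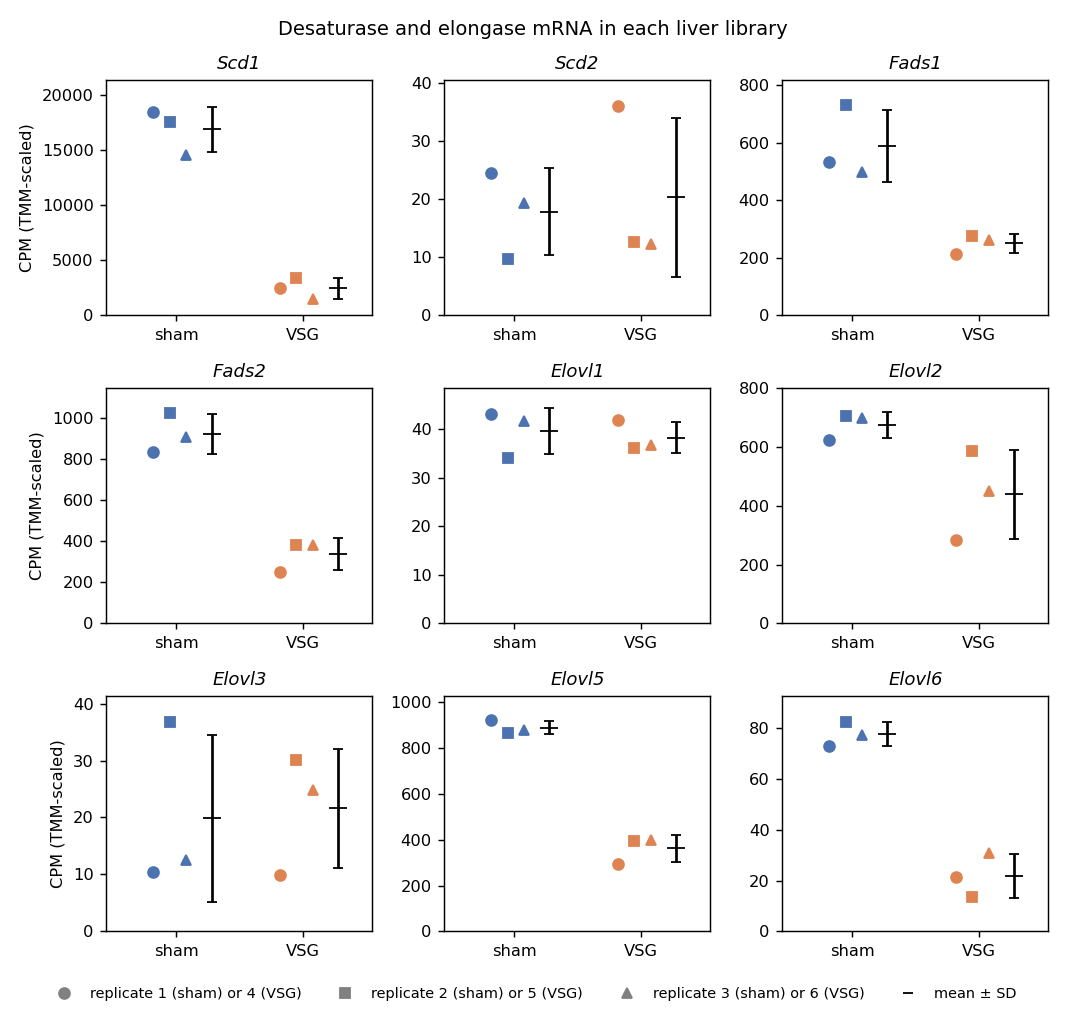
Level of each gene in CPM (counts scaled to library size with TMM factors, linear axes from 0) in the 3 sham (blue) and 3 VSG (orange) livers, with the mean and SD of each group in black. Scd1, Fads1, Fads2, Elovl5, Elovl6 and Elovl2 have VSG points that all lie below the sham points, whereas Scd2, Elovl1 and Elovl3 overlap.

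Scd1 was among the most abundant liver transcripts of the sham mice. Its level was 18449, 17543 and 14524 CPM in sham 1, 2 and 3 and 2501, 3381 and 1515 CPM in VSG 4, 5 and 6. The highest VSG library stood well below the lowest sham library, and VSG 6 was the lowest of all. This is a log2 fold change of -2.77 (SE 0.389, adjusted p = 0.0114). By counts per base of exon, Scd1 held rank 10, 16 and 17 among all genes of sham 1 to 3, and rank 76, 65 and 120 in VSG 4 to 6. It took 1.58 to 2.11% of all counts in sham livers and 0.136 to 0.337% in VSG livers. Scd2, the paralog that predominates in brain, was scarce. It was at 24.4, 9.77 and 19.4 CPM in sham livers and at 36.1, 12.6 and 12.3 CPM in VSG livers, with both groups overlapping. VSG 4 and sham 1 held the highest Scd2 values of their groups, as they did of the macrophage sum, whose part in the Scd2 values was not tested. Scd2 had a log2 fold change of 0.18 (95% interval -1.02 to 1.39, adjusted p = 0.816), which was -0.52 without VSG 4 and -0.11 without sham 2. The ratio of Scd1 to Scd2, each per base of exon, was 844, 2006 and 838 in sham livers. It was 77.4, 299.7 and 138 in VSG livers, below every sham value (log2 difference -2.93, exact two-sided permutation p = 0.1, adjusted p = 0.2).

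Fads2, the desaturase of the first step from linoleate and alpha-linolenate, was at 834, 1026 and 908 CPM in sham livers and at 249, 383 and 381 CPM in VSG livers. The highest VSG value was far below the lowest sham value, and VSG 4 was the lowest. Its log2 fold change was -1.45 (SE 0.214, adjusted p = 0.0129, interval of the fold 1.92 to 3.89). Fads1, which completes arachidonate, was at 534, 733 and 500.1 CPM in sham and at 215, 277 and 263 CPM in VSG livers. Sham 2 was the high library, and the VSG livers lay close together. Its log2 fold change was -1.23 (SE 0.198, adjusted p = 0.0157, interval of the fold 1.69 to 3.24). The ratio of Fads1 to Fads2 per base of exon was 0.377 to 0.489 in sham and 0.473 to 0.591 in VSG livers and overlapped between the groups (log2 difference 0.26, p = 0.2 in an exact two-sided permutation test, adjusted p = 0.3). That difference was 0.16 without either sham 3 or VSG 4.

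Elovl5, the elongase of the chains between the Fads2 and Fads1 steps, had the tightest sham values of the 9 genes. They were 920, 866 and 877 CPM, a coefficient of variation of 3.19%, and the VSG values were 294, 395 and 398 CPM. VSG 4 was again the lowest library. In log2 units the change was -1.29 (SE 0.170, adjusted p = 0.00994, interval of the fold 1.85 to 3.24). Elovl2, which lengthens the longer polyunsaturated chains on the way to docosahexaenoate, was at 623, 704 and 698 CPM in sham and at 283, 585 and 450 CPM in VSG livers. The groups did not overlap, but VSG 5 lay just under the lowest sham value and the VSG livers spanned a 2.07-fold range. Its log2 fold change of -0.62 (95% interval -1.25 to 0.01, adjusted p = 0.153) missed the threshold and became -0.38 without VSG 4 and -0.90 without VSG 5. The ratio of Elovl2 to Elovl5 per base of exon was 0.601, 0.722 and 0.707 in sham and 0.856, 1.32 and 1.003 in VSG livers. It was higher in all 3 VSG livers than in any sham liver (log2 difference 0.63, exact two-sided permutation p = 0.1, which is the smallest that 3 against 3 can give, adjusted p = 0.2 over 6 ratios).

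Elovl6, the elongase that turns palmitate into stearate, was at 73.0, 82.4 and 77.4 CPM in sham livers and at 21.4, 13.4 and 30.9 CPM in VSG livers. The sham values were close together and VSG 5 was the lowest, whereas the lowest Scd1 value was in VSG 6. Elovl6 had a log2 fold change of -1.83 (SE 0.281, adjusted p = 0.0142). The ratio of Elovl6 to Elovl5 was 0.0435 to 0.0521 in sham and 0.0186 to 0.0425 in VSG livers, without overlap (log2 difference -0.60, exact two-sided permutation p = 0.1, adjusted p = 0.2), and the difference was -0.22 without VSG 5. The ratio of Scd1 to Elovl6 overlapped, at 332, 280 and 247 in sham and 154, 331 and 64.5 in VSG livers (log2 difference -0.93, exact permutation p = 0.3, adjusted p = 0.36), and the difference was -0.33 without VSG 6 and -1.51 without VSG 5. An antisense gene, Gm35986, overlaps 34 exonic bases of Elovl6 and had 75 counts in all 6 libraries together.

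Elovl1, the elongase of saturated and monounsaturated very long chains for sphingolipids, was at 43.1, 34.1 and 41.7 CPM in sham and at 42.0, 36.2 and 36.7 CPM in VSG livers, with the lowest and the highest value both in sham mice. Its log2 fold change was -0.05, and the 95% interval of -0.34 to 0.24 was the narrowest of the 9 genes (adjusted p = 0.791). Without sham 1 the estimate was 0.0079. Elovl3, best known from skin and brown fat and in liver for a level that depends on sex and time of day, was at 10.4, 36.7 and 12.4 CPM in sham and at 9.94, 30.1 and 24.8 CPM in VSG livers. Sham 2 and VSG 5 were high and sham 1 and VSG 4 low, so that the spread within groups exceeded the difference between them (log2 fold change 0.13, 95% interval -1.25 to 1.499, adjusted p = 0.896). The sign turned to -0.19 without sham 1, -0.13 without sham 3 and -0.20 without VSG 5, and the estimate was 0.91 without sham 2. The summed male-biased liver genes had the same order of libraries within each group, at 2464, 4711 and 2728 CPM in sham and 1063, 4880 and 3261 CPM in VSG livers, and their part in the Elovl3 values was not tested. The ratio of Elovl3 to Elovl1 overlapped between the groups (log2 difference 0.26, exact permutation p = 1). Exons of Cdc20 overlap 53 bases of Elovl1 on the opposite strand and had 236 counts in all libraries together.

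**Figure D2:**
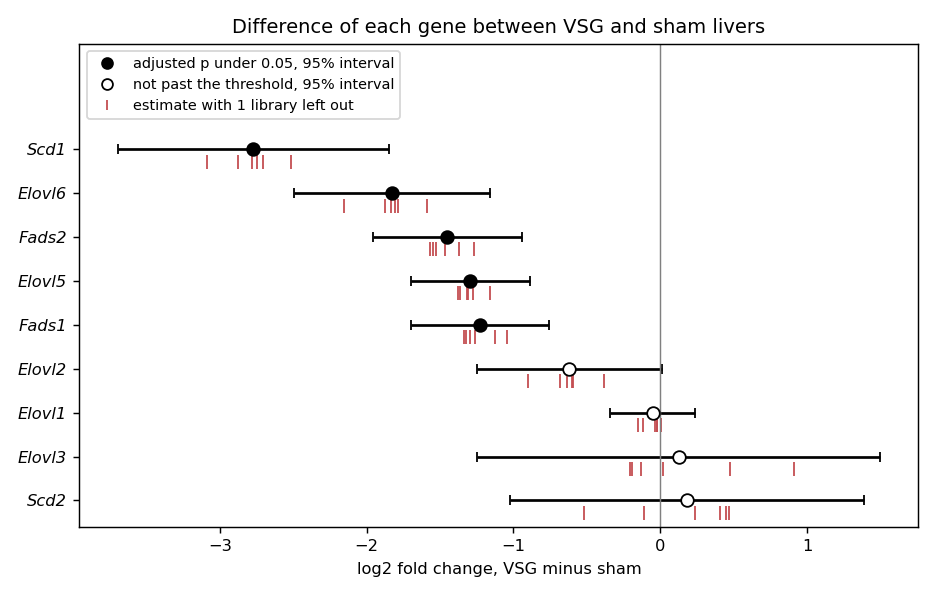
Log2 fold change (VSG minus sham) of each gene with its 95% interval, filled where the adjusted p was under 0.05, and red ticks for the estimates with 1 library left out. Scd1 lies at -2.77 and Elovl6 at -1.83, and the ticks of Scd2, Elovl1 and Elovl3 fall on both sides of 0.

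The calls depended on 2 libraries. Without sham 3, 0 of the 9 genes passed edgeR (adjusted p 0.0556 to 0.0685 for the 5 lower genes), in a fit that called 1.07% of all genes. At an unadjusted p under 0.05 that fit kept 5 of the 9, against 23.2% of all genes. Without VSG 6, only Elovl6 passed (adjusted p = 0.0257), in a fit that called 1.42% of all genes. Leaving out VSG 5 instead added Elovl2 (adjusted p = 0.0495). The log2 fold changes of the 5 lower genes kept their sign under all 13 alternatives, from -3.09 to -2.52 for Scd1, -2.16 to -1.59 for Elovl6, -1.58 to -1.27 for Fads2, -1.44 to -1.16 for Elovl5 and -1.35 to -1.04 for Fads1.

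On a scale per base of exon (FPKM, counts per kilobase of exon scaled for library size), the order of the genes was not the same in both groups. In sham livers Scd1 led at a mean of 3442 FPKM, followed by Fads2 (280.0), Elovl5 (252), Elovl2 (170), Fads1 (122), Elovl1 (14.5), Elovl6 (12.1), Elovl3 (10.1) and Scd2 (3.27). The ranges of Fads2 and Elovl5 overlapped, as did those of Elovl1 and Elovl6 and those of Elovl6 and Elovl3, and the other neighbours in this order did not. In VSG livers Scd1 was still the highest, at 504 FPKM, and Elovl2 (111), Elovl5 (103) and Fads2 (102) followed, with overlap between Elovl2 and Elovl5 and between Elovl5 and Fads2. Fads1 (52.3), Elovl1 (14.1), Elovl3 (10.9), Scd2 (3.72) and Elovl6 (3.40) came next, the last 4 each overlapping its neighbour. Elovl2 thus lay below the range of Fads2 and Elovl5 in sham livers and had a higher mean than either in VSG livers, within the spread. Summed over the 9 genes, the level was 4591, 4519 and 3810 FPKM in sham and 816, 1157 and 740 FPKM in VSG livers. Scd1 supplied 82.2, 79.4 and 77.9% of this sum in sham and 62.6, 59.7 and 41.9% in VSG livers. Without Scd1 the other 8 genes summed to 819 to 933 FPKM in sham and 305 to 466 FPKM in VSG livers, so the groups stayed apart with it left out.

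**Figure D3:**
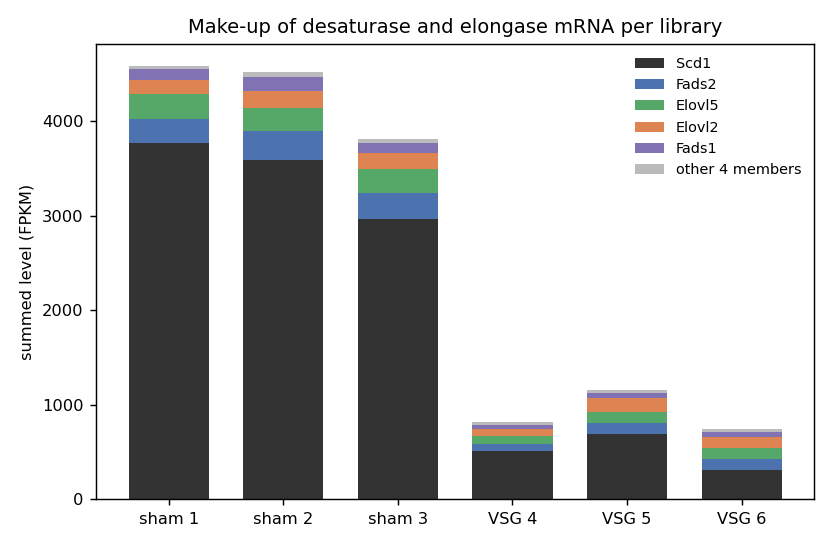
Summed level of the 9 genes in FPKM in each library, stacked by gene (linear axis from 0). Sham libraries reach 3810 to 4591 FPKM and VSG libraries 740 to 1157 FPKM, and Scd1 (dark) makes up 77.9 to 82.2% of the sham bars and 41.9 to 62.6% of the VSG bars.

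The genes also differed in how closely the animals of a group resembled each other. Elovl5, Elovl6 and Elovl2 varied little among sham livers, with coefficients of variation of 3.19, 6.01 and 6.72%, and more among VSG livers, with 16.4, 40.0 and 34.4%. Scd1 went from 12.2 to 37.8% and Fads2 from 10.5 to 22.8%. Fads1 (21.4 to 13.1%), Elovl1 (12.2 to 8.38%) and Elovl3 (73.6 to 48.3%) went the other way, and Scd2 went from 41.7 to 67.1%. With 3 animals a group these spreads were not tested against each other. The lowest count behind any of these values was 214, for Scd2 in sham 2, and Scd1 rested on 31798 to 500077 counts.

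For each gene, the nearest profiles were sought among 9963 genes with a mean of at least 5 CPM, as the root mean square difference of log2 CPM over the 6 libraries after centring each gene. Nearest to Scd1 were Mgst3, a microsomal glutathione transferase, and Acot2, a mitochondrial acyl-CoA thioesterase, at distances of 0.25 and 0.27. Mgst3 was at 15.6 to 20.95 CPM in sham and 1.33 to 3.03 CPM in VSG livers. Fads2 was closest to Ugp2, which makes UDP-glucose, and Entpd5, at 0.07 and 0.09. Ugp2 went from 514, 569 and 584 CPM in sham to 157, 226 and 225 CPM in VSG livers, with VSG 4 the lowest as for Fads2. Fads1 was closest to Khdrbs3 and Cfap54 (0.10 and 0.11), Elovl5 to Olfm3 and Hnmt, the histamine methyltransferase (0.09 and 0.10), and Elovl6 to Tlr12 and Abcc3, a basolateral export pump (0.29 and 0.31). Elovl2 was closest to Faah, which hydrolyses fatty acid amides, and Tmem63b (0.06 and 0.08). Scd2 was closest to Tmem86a and Cotl1 (0.08 and 0.16), Elovl1 to Agtpbp1 and Sec24d (both 0.03) and Elovl3 to Cyp4f14 and Ppp1r3c (0.23 and 0.24). These distances describe 6 libraries split into 2 groups. The profiles share that split, except those of Scd2, Elovl1 and Elovl3, whose groups overlapped.

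Among the 8 other desaturases and elongases listed, 4 were deep enough to test, and 1, Elovl7, was lower after VSG, against 14.7% of all genes called. Elovl7 was at 25.1, 9.72 and 25.3 CPM in sham and at 3.16, 2.48 and 2.29 CPM in VSG livers, a log2 fold change of -2.92 (SE 0.395, adjusted p = 0.0105), which did not pass without sham 3 or without VSG 6. Fads3 (-0.52, adjusted p = 0.210), Fads6 (-0.21, adjusted p = 0.423) and Degs1, the dihydroceramide desaturase (-0.22, adjusted p = 0.165), did not pass. Scd3, which shares sequence with Scd1, was too low to test, at 3, 12 and 11 counts in sham and 1, 1 and 0 in VSG livers, and Scd4, Elovl4 and Degs2 were at 9 or fewer. The median log2 fold change of the 4 tested was -0.37.

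An elongase carries out only the condensing step of each round, and the reductases and dehydratase that complete it, with the cytochrome b5 chain that feeds electrons to the desaturases, made up a list of 12 genes. Of 11 tested, 3 were lower after VSG, 0 were higher and 8 did not pass, with a median log2 fold change of -0.60. The share called among all genes was 14.7%. Cyb5r3, the cytochrome b5 reductase, was at 378, 454 and 456 CPM in sham and at 149, 222 and 179 CPM in VSG livers, a log2 fold change of -1.23 (SE 0.183, adjusted p = 0.0130). Hsd17b12, the ketoacyl-CoA reductase of the cycle, was at 207, 287 and 242 CPM in sham and at 112, 115 and 148 CPM in VSG livers (-0.97, adjusted p = 0.0196). Hacd2, a dehydratase, was at 31.0 to 37.3 CPM in sham and 20.03 to 22.7 CPM in VSG livers (-0.63, adjusted p = 0.0184). In all 3 genes the groups did not overlap, and none of the 3 calls held without sham 3 or without VSG 6. Tecr, the enoyl reductase, was at -0.60 with an adjusted p of 0.0510, and Cyb5a (-0.73, adjusted p = 0.109) and Cyb5b (-0.80, adjusted p = 0.0833) also missed the threshold. Hacd1 (0.10), Hacd3 (-0.27), Hacd4 (0.98), Cyb5r1 (0.52) and Cyb5r4 (-0.07) had adjusted p-values of 0.124 to 0.767. Cyb5r2 had at most 1 count per library.

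Of 11 genes of fatty acid synthesis, enzymes with a carrier and regulatory proteins of the pathway that supplies saturated fatty acid to Elovl6 and Scd1, 7 were lower and 0 higher, with a median log2 fold change of -1.17. Without sham 3 the number lower was 2, and without VSG 6 it was 3. Thrsp, a lipogenic nuclear protein, was at 86.8 to 383 CPM in sham and 7.52 to 13.1 CPM in VSG livers (-4.40, adjusted p = 0.00993). Me1, the malic enzyme that supplies NADPH, was at 70.1 to 108 CPM in sham and 15.3 to 18.3 CPM in VSG livers (-2.42, adjusted p = 0.00197), and Pklr, the liver pyruvate kinase, had a log2 fold change of -2.30 (adjusted p = 0.0167). Fasn, which synthesizes palmitate, was lower by less than Scd1 or Elovl6 in its point estimate (-1.17, SE 0.266, adjusted p = 0.0338), a difference that was not tested. Of 14 regulators 3 were lower and 0 higher, with a median of -0.01, and 1 was called without sham 3 and 1 without VSG 6. Among all genes tested, 14.7% were called in either direction. Pparg (-1.23, adjusted p = 0.00692), Srebf1, the gene of SREBP-1c (-0.78, adjusted p = 0.0142), and Insig2, which retains SREBP in the endoplasmic reticulum (-0.66, adjusted p = 0.0450), were lower. Mlxipl, the gene of ChREBP (0.10, adjusted p = 0.832), Nr1h3, the gene of LXR alpha (0.12, adjusted p = 0.512), and Ppara (-0.76, adjusted p = 0.217) did not pass.

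Srebf1 itself was at 133 to 151 CPM in sham and 77.2 to 94.1 CPM in VSG livers. Of 9 tested acyl-CoA synthetases and lysophospholipid acyltransferases, the enzymes that activate fatty acids and place them in phospholipid, 1 was lower, Lpcat3, which prefers polyunsaturated acyl chains (-0.77, adjusted p = 0.0416), and the median was -0.06. With 1 library left out, the list kept a call in 1 of 6 fits, that without VSG 5, and 1 of 9 is no larger a share than the 14.7% of all genes. Of 16 genes that PPAR alpha is known to activate, in fatty acid oxidation and beyond it, 5 were lower and 0 higher, with a median of -0.85, among them Pdk4, a kinase that inhibits pyruvate dehydrogenase (-2.28, adjusted p = 0.0142), Pex11a, a peroxisome division factor (-2.26, adjusted p = 0.0115), and Acaa1b, a peroxisomal thiolase (-2.01, adjusted p = 0.0200). No call in that list held without sham 3 or without VSG 6, and the count was 2 without sham 2 and 3 without VSG 4. Of 17 cholesterol synthesis genes, targets of the related SREBP-2, 0 passed edgeR, 1 had an unadjusted p under 0.05 and DESeq2 called 0, with a median of 0.18. Without sham 2, again 0 passed, but 8 had an unadjusted p under 0.05, as did 4146 of the 14913 genes in that fit. Among the 16 clock genes, Clock was higher (0.60, adjusted p = 0.0216), and the median of the list was -0.37. At an unadjusted p under 0.05, 4 of them were lower and 4 higher, against 33.9% of all genes in either direction. Of 11 male-biased liver genes 1 was higher, C6 (1.93, adjusted p = 0.0134), no larger a share than the 14.7% of all genes. The list median of 1.62 was the value of Ugt2b38, which had at most 26 counts per library. Cyp4a12a (-1.25), Mup20 (-1.28) and Mup3 (-0.26) had negative log2 fold changes that did not pass, and the other genes had positive ones. Neither the C6 call nor that of Clock held without sham 3 or without VSG 6.

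**Figure D4:**
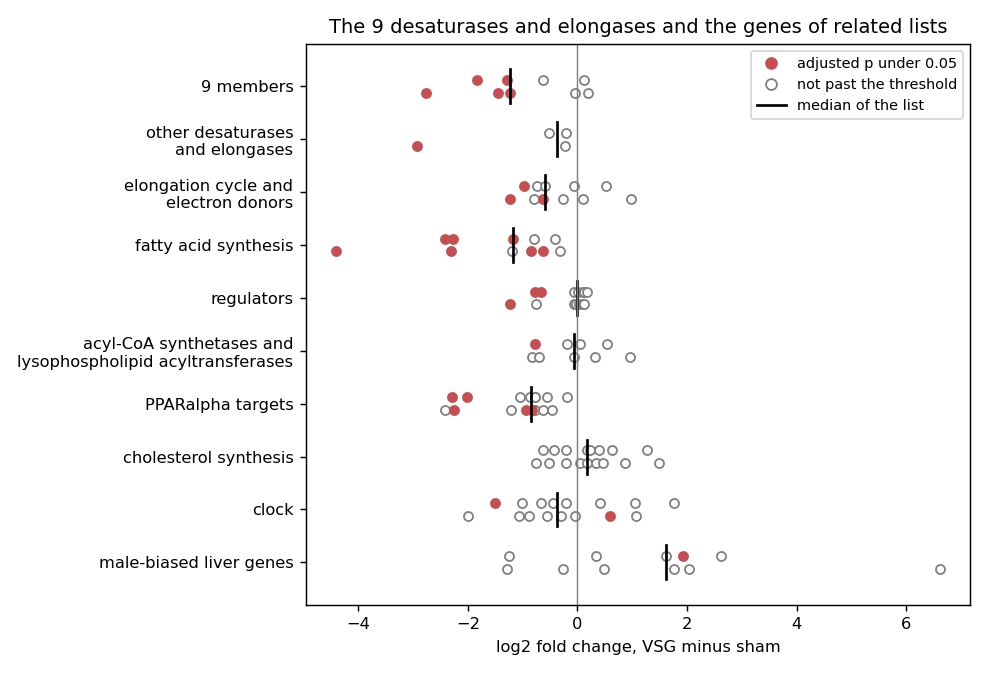
Log2 fold change (VSG minus sham) of each tested gene of the 9 desaturases and elongases and of the 9 related lists, filled where the adjusted p was under 0.05, with a black line at each median. The medians were -1.23 for the 9 genes, -1.17 for fatty acid synthesis, -0.60 for the elongation cycle and 0.18 for cholesterol synthesis.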

How the data were processed

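The deposited table held raw counts per gene and the summed exon length of each gene. Per the study's methods and the submitters' processing notes, the authors made strand-specific polyA libraries, checked reads with FastQC 0.10.1, aligned them to mm10 with STAR 2.6.0 and counted them with featureCounts (2.0.3 in the notes). Strand setting and annotation release are not given in the sources used here. Identifier, version and coordinates of all 9 genes were those of GENCODE M21, to which 55144 of 55385 genes could be matched. Counts were tested with edgeR 4.0.16 (R 4.3.3, filterByExpr with minimum count 10 and total 15, TMM factors of 0.897 to 1.15, glmQLFit and glmQLFTest with group as the only term), with Benjamini-Hochberg adjustment across the 14454 genes that passed the filter. CPM and FPKM used TMM-scaled library sizes. The script was tested on simulated data. Counting error covers reads, not molecules. To look for a library deposited more than once, pairs within a group were compared, and none agreed within counting noise (chi-square per degree of freedom at least 27.5). The genes, lists and tests were chosen with earlier results of these data known. Named genes were the 9 genes, the genes of 2 closely related lists, Srebf1, Mlxipl, Nr1h3, Ppara, Fasn, up to 3 genes per list and direction with the largest change past the threshold, and 2 nearest profiles per gene, and marker genes were named after their values were seen. Alternatives were DESeq2 1.42.0, limma 3.58.1 (voom, and log2(FPKM + 1)), RLE or total-count scaling, 2 other filters and leaving out each library. The result of 1 gene of the clock list is not reported here.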

Additional observations from a re-analysis of the deposited data

How the results depend on the processing

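No paired analysis was possible because the sample numbers are not shared between the groups. Total counts were 22804397 to 24191778 and effective library sizes 20984818 to 27105619, and there were 3 animals a group. Of the 9 genes, 5 were called in every alternative that kept all 6 libraries, and 0 to 6 with a library left out. Scaling by total counts moved the median log2 fold change of all genes from 0.03 to -0.11, and changes on that scale are relative to it, with 1513 genes lower and 486 higher. The cause of the shifts below was not tested.

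DESeq2 called 3252 genes against 2118 with edgeR. In related lists, DESeq2 called 6 elongation cycle genes against 3, 2 acyl-CoA synthetase and acyltransferase genes against 1, 10 PPAR alpha targets against 5, 7 clock genes against 2 and 2 male-biased genes against 1. Total-count scaling called 5, 2, 9 and 2 in the elongation cycle, acyl-CoA synthetase, PPAR alpha and male-biased lists, and 2 cholesterol synthesis genes against 0. Without the filter, 2 other desaturases and elongases were called against 1, 2 acyl-CoA synthetase genes, 5 clock genes and 3 male-biased genes. Limma on log2(FPKM + 1) called 1 clock gene.

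With 1 library left out, 159 to 2732 genes were called, the low end without sham 3 and 210 without VSG 6. The ranges were 0 to 2 other desaturases and elongases, 0 to 4 elongation cycle genes, 2 to 8 fatty acid synthesis genes against 7, 1 to 3 regulators, 0 to 2 acyl-CoA synthetase genes, 0 to 8 PPAR alpha targets, 0 to 4 clock genes and 0 to 3 male-biased genes. Log2 fold changes that turned sign ranged from -0.52 to 0.47 for Scd2, from -0.15 to 0.0079 for Elovl1 and from -0.20 to 0.91 for Elovl3. Of the 6 ratios between genes, 5 kept their sign with a library left out, and that of Elovl3 to Elovl1 ranged from -0.15 to 0.92.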
